A study of Bos taurus with 36 samples.

Results

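Genes of the cell cycle and of DNA replication were examined in mammary tissue of lactating Holstein cows. A list of 42 genes was drawn up, of which 35 were found as a single gene symbol in the annotation of the array. They stood among 9155 genes with a single symbol and 24016 probe sets in all. Each gene was represented by 1 probe set, the one with the highest mean log2 value over the 36 arrays. MCM2, MKI67, TOP2A, TTK, KIF11, CDK6 and CDKN1B were not matched to a symbol and were not analysed here, so the most used proliferation marker, MKI67, has no value.

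Tissue came from 6 multiparous cows that were milked 4 times a day (4×) on the right side of the udder and 2 times (2×) on the left side during days 1 to 21 of lactation. From then on both sides were milked 2×. On days 21 and 40 the rear glands of both sides were biopsied and on day 23 the fore glands, and the RNA of each biopsy went on a GeneChip Bovine Genome array of its own. The 6 groups therefore hold 6 arrays each: 2× and 4× glands on days 21, 23 and 40. On days 23 and 40 a 4× gland is one that had been milked 4× until day 21. Day 23 differs from the other days in the gland sampled as well as in time, and the effects of day and of gland position cannot be told apart. All cows were lactating, no biopsy was taken before the treatment, and the mean of 6 milk protein genes lay between 14.04 and 14.35 in every array.

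A cell that divides passes from G1 through DNA synthesis to mitosis. In G1, D and E type cyclins with their kinases phosphorylate the retinoblastoma protein, which frees E2F factors to switch on the genes of replication, and the inhibitor CDKN1A holds the kinases back. The MCM proteins form the helicase that is loaded on origins before DNA synthesis, PCNA is the clamp of the polymerases, and the mitotic kinases, B type cyclins and checkpoint proteins peak later, around chromosome segregation. In a lactating udder few of the secretory cells divide at any time, so the RNA of dividing cells is diluted by that of cells that make milk.

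In mammary tissue of these cows, the transcripts of mitosis lay closer to the background of the array than those of replication or of the G1 cyclins. A mean log2 value under 5, taken as near background, was found for 10 of the 35 genes (28.6%), against 1506 of 9155 genes (16.45%). Of the 14 measured genes of mitosis, 7 were near background: the cyclins CCNA2, CCNB1 and CCNB2, which drive CDK1, the spindle checkpoint proteins BUB1, BUB1B and MAD2L1, and the kinetochore protein CENPF. The same held for 2 of the 10 genes of replication and nucleotide supply, the helicase subunit MCM6 and RRM2, the small subunit of ribonucleotide reductase. Cyclin E2 (CCNE2), with a mean of 3.14, was the one near background among 7 G1 cyclins and kinases. None of the 4 genes of the restriction point and inhibitors was near background. A probe set's log2 value depends on its probes, so these values place a gene against the background and do not rank genes by abundance.

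**Figure D1:**
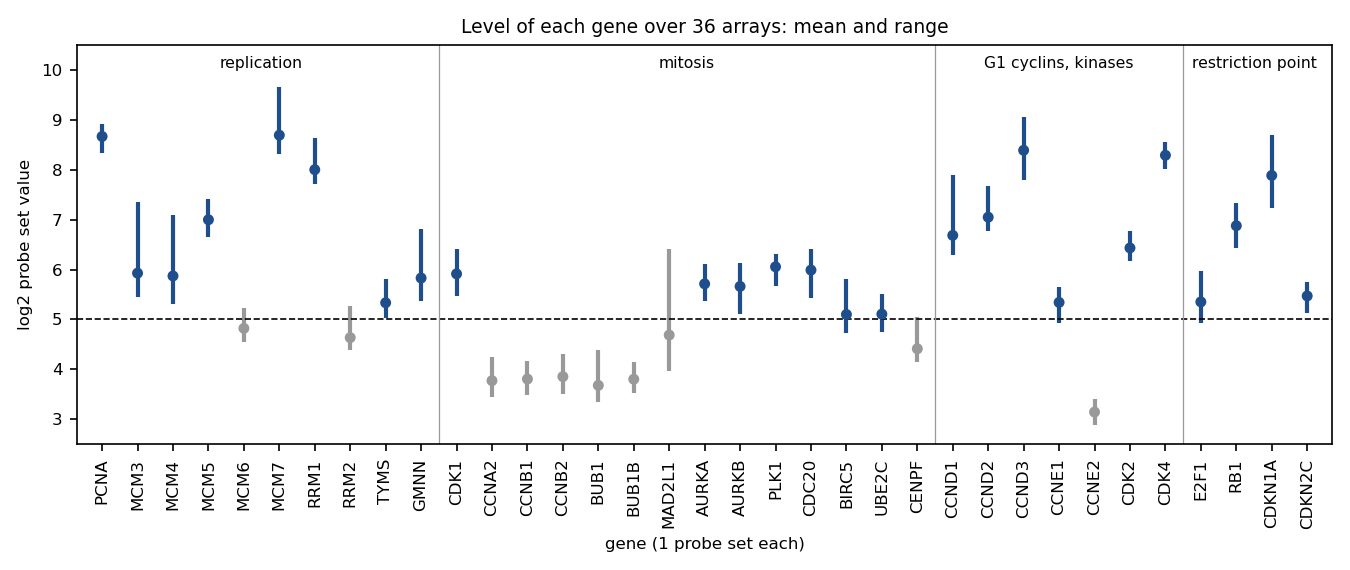
Mean (point) and range (line) of the log2 value of each gene over 36 arrays, on the vertical axis, with genes grouped by role along the horizontal axis. The dashed line is the value of 5, and the 10 genes with a mean below it are grey, 7 of them in the mitosis group.

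For most of these genes the cow took a larger share of the variation than the day or the milking treatment. The standard deviation over the 36 arrays had a median of 0.19 log2 units over the 35 genes. Of the total variation of a gene, a median of 28.4% lay between cows, 2.98% between days and 1.44% between the 2× and 4× glands. With no effect at all these factors would take 14.3%, 5.71% and 2.86% on average, since there are 6 cows, 3 days and 2 kinds of gland. Those are averages, and the shares above are medians over genes. A median of such shares can lie below their average, so a median under it does not show less variation than with no effect. The share between glands was highest for CCND2, at 26.1% beside 29.1% between its cows, and next for MCM4, at 14.9%, and CCNE1, at 13.5%. The share between cows was highest for CCND3, a D type cyclin, at 67.9%, and for CDKN1A at 67.8%. Over the 6 arrays of a cow, CDKN1A averaged from 7.48 in cow 1 to 8.36 in cow 4. These shares are a description, and no test was made between cows.

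One array stood apart, for these genes and for all genes at large, and bears on every difference of day 21. The array of the 2× gland of cow 1 on day 21 held the highest value of all 36 arrays for 12 of the 35 genes (34.3%) and the lowest for 0. Over all 9155 genes it was the highest for 20.9% and the lowest for 18.6%. The 12 were MCM3, MCM4, MCM7, RRM1, RRM2, GMNN, CCNB2, AURKB, BIRC5, CENPF, CCND1 and CCNE2. The mean of 6 markers of luminal epithelium was 10.79 in that array and between 9.59 and 10.12 in the other 2× glands of day 21. In bulk tissue fewer cells of a type and less RNA per cell cannot be told apart. For the genes described whose day 21 means this cow carried, the values without it are given too.

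On day 21, at the end of 4× milking, several replication genes were lower in the 4× glands on average, and cow 1 set the size of most of these means. Of the 35 genes, 5 were lower (MCM3, MCM4, MCM7, TYMS and CCNB2) and 2 were higher (CDK1 and CDKN1A) in the 4× gland (unadjusted p under 0.05), or 20.0% of these genes beside 15.9% of all probe sets. For each direction the background was 7.91% lower and 8.02% higher. No gene passed after adjustment over all probe sets (limma), where the smallest adjusted p was 0.208, and no probe set on the array did either. Without cow 1 the number at an unadjusted p under 0.05 was 0 of 35, and 6.53% of all probe sets. Without cow 3 it was 3, and leaving out any other single cow gave 5 to 8.

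The MCM proteins are subunits of the replicative helicase, and 5 of the 6 in the list were measured. MCM4 ranged from 5.69 through a median of 5.93 to 7.09 in the 2× glands of day 21 and from 5.49 through 5.82 to 5.91 in the 4× glands. The groups overlapped, yet the 4× gland was the lower one in 6 of 6 cows. The mean difference in MCM4 was -0.31 ± 0.12 (SE) log2 units (limma, unadjusted p = 0.019, adjusted p = 0.222). Cow 1 had -1.23, and the remaining 5 cows lay from -0.20 to -0.09. Without cow 1 the mean was -0.12, with an unadjusted p of 0.15 by limma.

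MCM3 lay between 5.58 and 7.35 in the 2× glands of day 21, with a median of 5.93, and between 5.62 and 6.10 in the 4× glands, with a median of 5.77. The 2× array of cow 1 was 0.94 log2 units above the highest of the other 35 arrays. The mean difference was -0.36 ± 0.16 (limma, unadjusted p = 0.033, adjusted p = 0.271), with a lower 4× gland in 4 of 6 cows. It was -0.11 without cow 1, and it also lost the threshold without cow 3 or cow 4, at -0.37 and -0.38. MCM3 has a second, dimmer probe set, and there the difference was 0.21 ± 0.13, so the direction differed between the probe sets of the gene.

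MCM7 ran from 8.45 to 9.67 in the 2× glands of day 21, with a median of 8.68, and from 8.33 to 8.87 in the 4× glands, with a median of 8.67. The medians were nearly equal, and the mean difference of -0.25 ± 0.12 (limma, unadjusted p = 0.049, adjusted p = 0.312) came with a lower 4× gland in 4 of 6 cows, of which cow 1 had -1.22 and cow 3 -0.40. Without cow 1 it was -0.06, and without cow 3 or cow 4, at -0.23 and -0.28, it was also over the threshold. MCM5 and MCM6 differed by -0.03 and -0.01 on day 21, so the 5 subunits did not move as 1 unit. For MCM6 a second probe set, also near background, gave -0.42 ± 0.19 (limma, unadjusted p = 0.040).

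TYMS, thymidylate synthase, makes the thymidine nucleotide for DNA synthesis. Its values in the 2× glands of day 21 were 5.09 to 5.50, with a median of 5.41, and in the 4× glands 5.09 to 5.32, with a median of 5.14. The 4× gland was lower in 5 of 6 cows, and the differences between cows were even, from -0.39 to 0.02. The mean difference was -0.20 ± 0.08 (limma, unadjusted p = 0.016, adjusted p = 0.213), and over the threshold without cow 1, at -0.16, or without cow 6, at -0.18. The second probe set of TYMS, with a mean of 3.52 near background, went the other way, by 0.13 ± 0.08.

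The other genes of replication and nucleotide supply did not pass on day 21. PCNA, the polymerase clamp, was between 8.61 and 8.79 in the 2× glands and between 8.50 and 8.93 in the 4× glands, with medians of 8.70 and 8.65. It was lower in 3 of 6 cows, with a mean difference of -0.02 ± 0.07. RRM1, the large subunit of ribonucleotide reductase, differed by -0.11 and RRM2 by -0.14, of which cow 1 had -0.64 and -0.70. GMNN, geminin, which keeps origins from being licensed again, differed by -0.21 ± 0.15, of which cow 1 had -1.37. Without cow 1 RRM1 was -0.0037, RRM2 -0.02, GMNN 0.02 and PCNA 0.02.

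As a group, the 10 genes of replication and nucleotide supply had negative mean differences in 10 of 10 on day 21, with a median of -0.17 log2 units beside a median of 0.02 over all probe sets. Without cow 1, 7 of 10 were negative and the median was -0.03, beside 0.01 over all probe sets. The mean over the 10 genes was below 0 in 6 of 6 cows. Cow 1 had -0.77 and cow 3 had -0.16, whereas the remaining 4 cows lay from -0.03 to 0.00. On day 23 the median was 0.05, with 8 of 10 genes above 0 (5 of 10 and 0.0065 without cow 1), and on day 40 it was -0.08, with 7 of 10 below 0. No test was made on the group.

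Markers of some cell types were also lower in the 4× glands on day 21, and those of others were not. The mean of 6 luminal epithelium markers was lower in 6 of 6 cows, by -0.35 ± 0.38 (SD), and by -0.21 without cow 1, and 4 of the 6 were lower at an unadjusted p under 0.05 (limma). It ran from 9.59 to 10.79 in the 2× glands and from 9.39 to 9.73 in the 4× glands. The mean of 7 T cell markers was lower in 6 of 6 cows as well, by -0.13 ± 0.06 (SD), with 6.72 to 7.15 in the 2× glands and 6.55 to 6.95 in the 4× glands, and 3 of the 7 were lower at that threshold. Macrophage markers were lower in 5 of 6 cows, by -0.18 ± 0.21 (SD), and neutrophil markers in 4 of 6, by -0.29 ± 0.40 (SD). Myoepithelium, B and plasma cell and fibroblast means were below 0 as well, at -0.23, -0.09 and -0.03. Of the 11 marker lists the others were above 0: adipocytes by 0.12, endothelium by 0.10, milk proteins by 0.05 and erythrocytes by 0.02. The part of these cell types in the differences of the replication genes was not tested. In cell counts of these biopsies, the study found the shares of epithelial and of stromal cells unaffected by milking frequency or day. It reported the same for the incorporation of labelled thymidine into DNA, its measure of proliferation. Those counts did not separate the cell types listed here, and the marker means are RNA signals, not counts of cells.

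**Figure D2:**
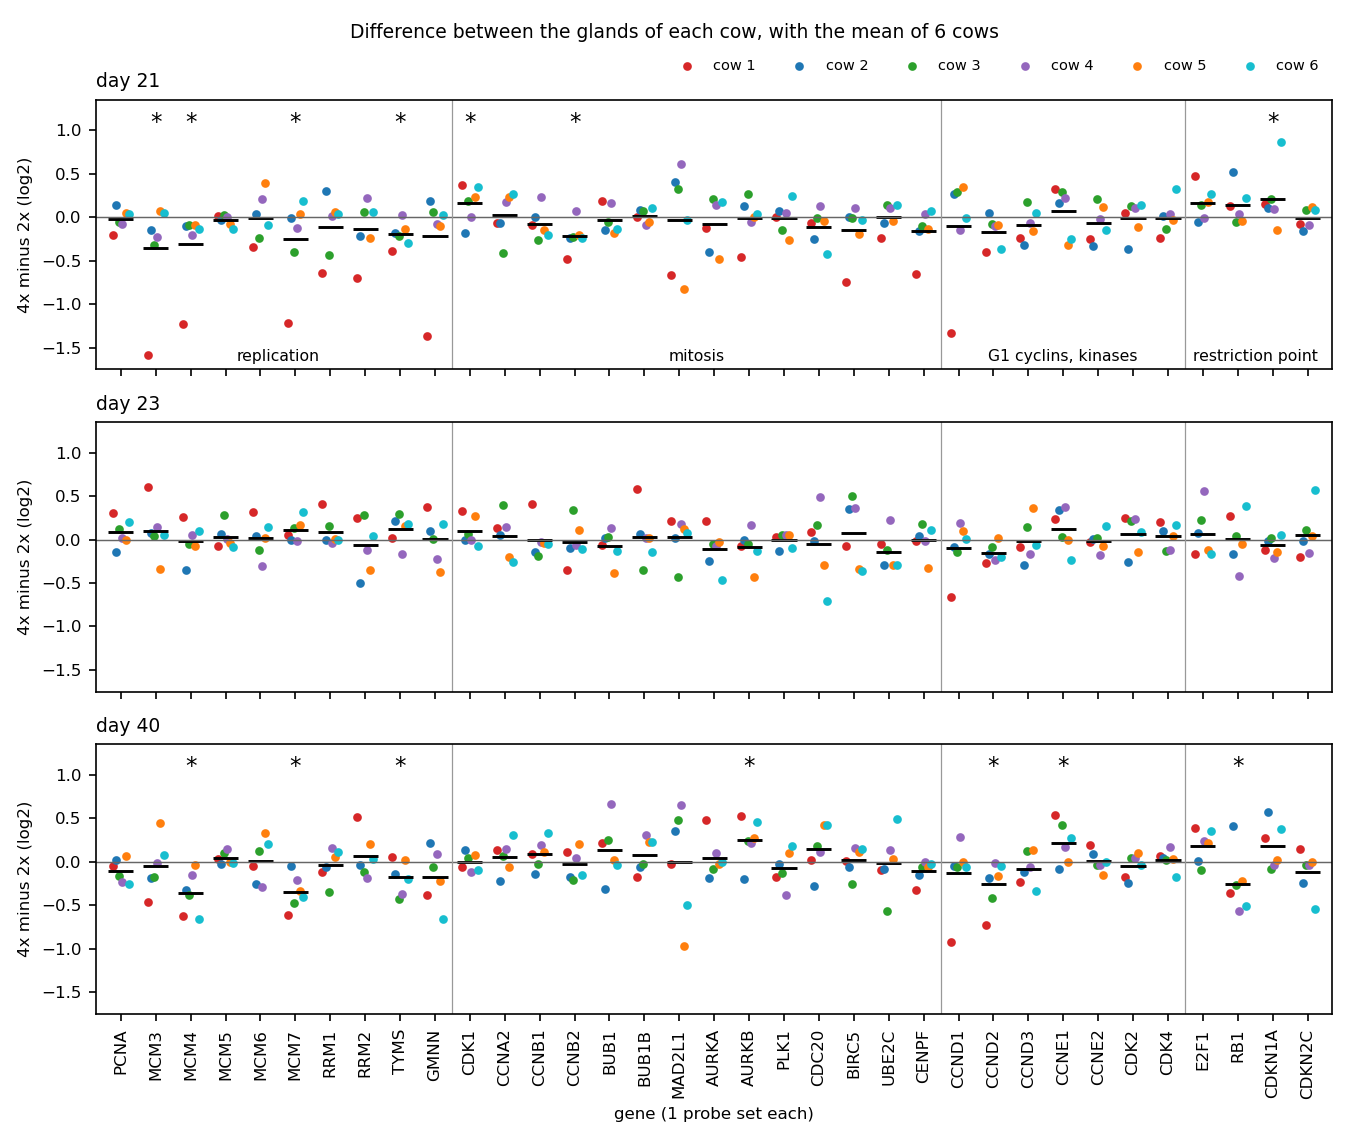
Difference between the 4× and the 2× gland of each cow (points, 1 colour a cow) and its mean over 6 cows (black bar) for the 35 genes on days 21, 23 and 40, in log2 units on the vertical axis. Stars mark an unadjusted p under 0.05 by limma; on day 21 the points of cow 1 lie far below the others for MCM3 (-1.58), MCM4 (-1.23) and MCM7 (-1.22).

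Among the genes of mitosis, CDK1 and CCNB2 went opposite ways on day 21. CDK1, the kinase that drives entry into mitosis, lay between 5.50 and 6.10 in the 2× glands, with a median of 5.84, and between 5.67 and 6.33 in the 4× glands, with a median of 6.03. It was higher in the 4× gland of 4 of 6 cows, by 0.16 ± 0.08 on average (limma, unadjusted p = 0.045, adjusted p = 0.302). It was over the threshold without cow 1, 3, 5 or 6, at 0.12, 0.16, 0.14 and 0.12. Cyclin B2 (CCNB2), a partner of CDK1, was near background at 3.73 to 4.30 in the 2× glands and 3.52 to 3.83 in the 4× glands. It was lower in the 4× gland of 5 of 6 cows, by -0.22 ± 0.08 (limma, unadjusted p = 0.015, adjusted p = 0.208), and by -0.17 without cow 1, just over the threshold.

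The remaining 12 genes of mitosis did not pass on day 21. They were CCNA2 and CCNB1, the checkpoint proteins BUB1, BUB1B and MAD2L1, and CENPF. With them stood the kinases AURKA, AURKB and PLK1, the activator CDC20 and the enzyme UBE2C of the ubiquitin ligase that ends mitosis, and BIRC5, survivin, a partner of AURKB. Over all 14 genes of mitosis the median difference was -0.03 on day 21, -0.01 on day 23 and 0.03 on day 40, and 4, 5 and 8 of them were above 0.

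Of the G1 cyclins and kinases, 0 of 7 passed on day 21, and cyclin D1 (CCND1) showed how far 1 cow can carry a mean. CCND1, which links growth signals to the cell cycle, was between 6.35 and 7.89 in the 2× glands of day 21, with a median of 6.64, and between 6.42 and 6.98 in the 4× glands, with a median of 6.76. Its mean difference was -0.10 ± 0.17, with -1.34 in cow 1. On all 3 days cow 1 had the lowest difference of CCND1 of the 6 cows, namely -0.66 after the change of milking (day 23) and -0.92 at the last biopsy (day 40). The means turned to 0.15, 0.01 and 0.02 once cow 1 was left out. Cyclin D2 (CCND2) was lower by -0.16 ± 0.08 on day 21 and by -0.16 ± 0.08 on day 23, neither past the threshold. CCND3, CDK2, CDK4, CCNE1 and CCNE2 differed by -0.09 to 0.07 on day 21.

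CDKN1A, the inhibitor of cyclin-dependent kinases, was between 7.28 and 8.16 in the 2× glands of day 21, with a median of 7.67, and between 7.44 and 8.53 in the 4× glands, with a median of 7.81. It was higher in the 4× gland of 5 of 6 cows, by 0.21 ± 0.10 (limma, unadjusted p = 0.046, adjusted p = 0.303), of which cow 6 had 0.87. Without cow 6 the mean was 0.08, and without cow 1, 3 or 4, at 0.22, 0.21 and 0.24, it was also over the threshold. E2F1, the transcription factor that opens the replication program, was 0.16 ± 0.09 higher, RB1, the retinoblastoma protein, 0.14 ± 0.11 higher, and the inhibitor CDKN2C differed by -0.01; none of these passed. The mean over the 4 genes was above 0 in 6 of 6 cows on day 21, in 2 of 6 on day 23 and in 3 of 6 on day 40.

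On day 23, with both glands milked 2×, 0 of the 35 genes passed at an unadjusted p under 0.05, beside 2.64% of all probe sets, and 0 passed after adjustment (limma). With a separate spread for the day and no moderation, the number was 1. The largest mean difference among the 35 genes was -0.16, that of CCND2. MCM4 was then -0.01 ± 0.12 and MCM3 0.09 ± 0.16, and their groups overlapped, with MCM4 between 5.77 and 6.01 in the 2× glands and between 5.66 and 6.03 in the 4× glands. CDK1 was 0.10 ± 0.08 and CDKN1A -0.07 ± 0.10.

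On day 40, long after the treatment had ended, the 35 genes passed the threshold about as often as all probe sets did. MCM4, MCM7, CENPF and CCND2 were lower in the formerly 4× gland of every cow, and 0 of the 35 were higher in every cow. How many of all probe sets differed the same way in every cow was not counted. Of the 35 genes, 5 were lower (MCM4, MCM7, TYMS, CCND2 and RB1) and 2 higher (AURKB and CCNE1) at an unadjusted p under 0.05. That is 20.0% of the genes, near the 20.4% of all probe sets, which divided into 8.86% lower and 11.6% higher. No gene passed after adjustment (limma), where the smallest adjusted p was 0.178. Without cow 4 the number was 4 and without cow 6 it was 3. The division of all probe sets depends on scaling: of those past the threshold 56.7% were higher as deposited, 37.4% with arrays centred on their medians and 24.2% with arrays scaled to 6 reference genes. It depends on brightness as well: with probe sets of a mean log2 under 5 left out, 44.6% were higher. Both scalings moved the median difference of all probe sets down, from 0.027 as deposited to -0.006 with centred arrays and 0.0005 with reference genes. The 5 genes that were lower stayed past the threshold under both, which this shift favours, so their staying tells little. Of the 2 that were higher, AURKB stayed under both and CCNE1 under neither.

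MCM4 on day 40 was between 5.56 and 6.53 in the 2× glands, with a median of 5.91, and between 5.31 and 5.91 in the 4× glands, with a median of 5.61. The ranges overlapped, and the differences within cows ran from -0.66 to -0.04. The mean difference was -0.36 ± 0.12 (limma, unadjusted p = 0.0069, adjusted p = 0.180). MCM7 was between 8.46 and 9.19 in the 2× glands, with a median of 8.88, and between 8.36 and 8.63 in the 4× glands, with a median of 8.51. Its mean difference was -0.35 ± 0.12 (limma, unadjusted p = 0.0096, adjusted p = 0.182), from -0.61 to -0.05 in single cows.

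Unlike on day 21, these differences did not rest on cow 1. Without it MCM4 was -0.31 and MCM7 -0.30, and in each of 14 alternatives run, scalings and left-out cows included, both stayed past the threshold, with values from -0.43 to -0.30 for MCM4 and from -0.41 to -0.30 for MCM7. MCM3 on day 40 differed by -0.05 ± 0.16, MCM5 by 0.04 and MCM6 by 0.01, while the second probe set of MCM6 was at -0.40 ± 0.19 (limma, unadjusted p = 0.047). Luminal epithelium markers were lower in the 4× gland of 3 of 6 cows on day 40, with a mean difference of -0.20 ± 0.35 (SD). Of the 6 markers, 1 was lower at an unadjusted p under 0.05 (limma), beside 8.86% of all probe sets. Their mean ran from 9.50 to 10.42 in the 2× glands and from 9.51 to 9.83 in the 4× glands. Their part in the MCM differences was not tested.

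CCND2 was between 7.03 and 7.68 in the 2× glands of day 40, with a median of 7.11, and between 6.79 and 7.06 in the 4× glands, with a median of 6.94. The mean difference was -0.26 ± 0.08 (limma, unadjusted p = 0.0054, adjusted p = 0.178), and it was -0.17 without cow 1. It had the smallest unadjusted p of the 35 genes on that day. With -0.16 on both earlier days, CCND2 was below 0 on all 3 days. CENPF was also lower in 6 of 6 cows on day 40, by -0.11 ± 0.08, without passing the threshold. Its second probe set, also near background, showed 0.14.

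TYMS on day 40 was between 5.03 and 5.80 in the 2× glands and between 5.04 and 5.54 in the 4× glands, and its mean difference was -0.18 ± 0.08 (limma, unadjusted p = 0.030, adjusted p = 0.216), with a lower 4× gland in 4 of 6 cows. Without cow 2, 3, 4 or 6 it was over the threshold, at -0.18, -0.13, -0.14 and -0.17. Its second probe set, near background with a mean of 3.52, was 0.30 ± 0.08 higher (limma, unadjusted p = 0.0018). Of all probe sets past the threshold that day 56.7% were higher, and 44.6% with those near background left out. The mean of both TYMS probe sets was 0.06 higher. The direction of TYMS on day 40 is therefore not settled by this array.

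AURKB, the kinase of the chromosomal passenger complex, was between 5.36 and 5.82 in the 2× glands of day 40, with a median of 5.48, and between 5.40 and 6.03 in the 4× glands, with a median of 5.82. The mean difference was 0.25 ± 0.09 (limma, unadjusted p = 0.014, adjusted p = 0.191), higher in 5 of 6 cows, and 0.21 without cow 6, over the threshold. A second, dimmer probe set showed -0.01. Cyclin E1 (CCNE1), which drives the entry into DNA synthesis, was between 5.12 and 5.40 in the 2× glands and between 5.10 and 5.66 in the 4× glands. It was 0.22 ± 0.10 higher (limma, unadjusted p = 0.040, adjusted p = 0.230) and 0.28 ± 0.11 higher by its second probe set. Without cow 1, 3, 4 or 6 it was over the threshold, at 0.15, 0.18, 0.23 and 0.21, and with either scaling at 0.19.

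RB1 on day 40 was between 6.88 and 7.08 in the 2× glands, with a median of 7.04, and between 6.52 and 7.29 in the 4× glands, with a median of 6.70. The 4× gland was lower in 5 of 6 cows, and in cow 2 it was 0.41 higher. The mean difference was -0.25 ± 0.11 (limma, unadjusted p = 0.035, adjusted p = 0.223), and without any 1 of cows 1, 3, 4, 5 and 6 it was over the threshold, at -0.26 to -0.19. E2F1, whose activity RB1 restrains, was 0.18 ± 0.09 higher without passing the threshold, and CDKN1A 0.19 ± 0.10 higher, also without passing.

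**Figure D3:**
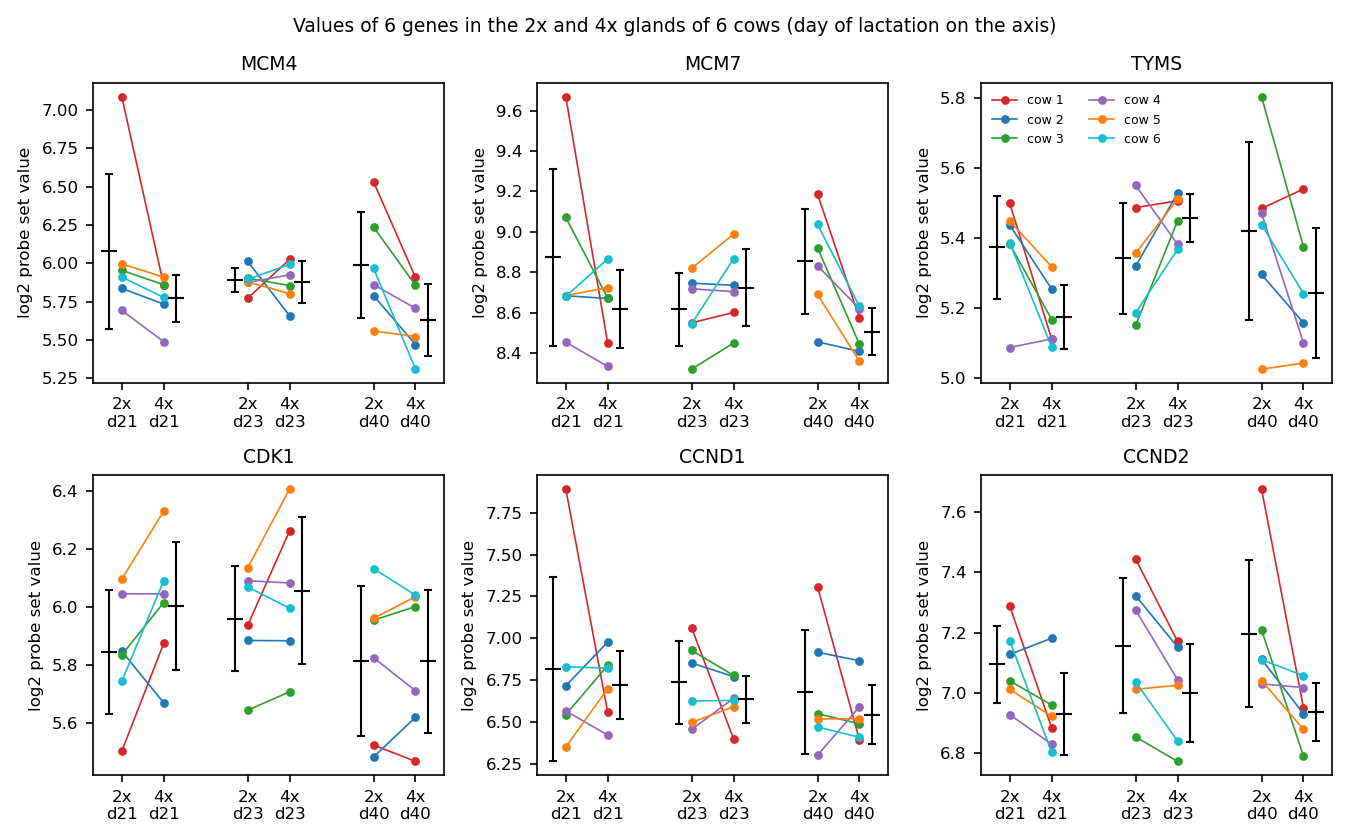
Log2 values of MCM4, MCM7, TYMS, CDK1, CCND1 and CCND2 in the 6 groups, with a line joining the 2× and the 4× gland of each cow and the mean and SD of each group in black (6 arrays a group). Each panel has its own vertical axis; on day 40 all 6 lines fall for MCM4, MCM7 and CCND2, while on day 21 cow 1 sets the height of MCM4, MCM7 and CCND1.

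The change of the difference from day 21, during 4× milking, to day 23, after it, was tested in the same fit. In 2 of 35 genes (5.71%), MCM7 and TYMS, the difference moved up at an unadjusted p under 0.05, beside 5.65% of all probe sets that moved up, 5.15% that moved down and 10.8% in either direction. After adjustment 0 passed (limma). TYMS went from -0.20 to 0.12, a change of 0.31 ± 0.11 (limma, unadjusted p = 0.0082, adjusted p = 0.394), positive in 5 of 6 cows. The second probe set of TYMS went the other way, from 0.13 to -0.02, and by the mean of both the change was 0.08, over the threshold. For MCM7 the change was 0.36 ± 0.17 (limma, unadjusted p = 0.048, adjusted p = 0.460), positive in 6 of 6 cows. It was 0.18 without cow 1, and also over the threshold without cow 3, 4 or 5, at 0.33, 0.41 and 0.41.

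From day 21 to day 40 the difference moved down in 1 of 35 genes (2.86%), RB1, beside 3.3% of all probe sets that moved down, 2.71% that moved up and 6.01% in either direction. RB1 went from 0.14 to -0.25, a change of -0.39 ± 0.16 (limma, unadjusted p = 0.023, adjusted p = 0.789), negative in 6 of 6 cows. Without cow 1, 4 or 6 it was just over the threshold, at -0.37, -0.34 and -0.32. The differences of MCM4, -0.31 on day 21 and -0.36 on day 40, share no arrays, though they come from the same 6 cows and the same rear glands.

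Between days, with both glands of a cow averaged, 1 gene was higher and 2 were lower on day 23 than on day 21 (unadjusted p under 0.05; 8.57% of these genes, beside 7.49% of all probe sets, or 3.24% higher and 4.25% lower). CDKN1A was 0.19 ± 0.08 higher (limma, unadjusted p = 0.030, adjusted p = 0.614), in 5 of 6 cows. RB1 was lower by -0.21 ± 0.09 (limma, unadjusted p = 0.034, adjusted p = 0.619), also in 5 of 6 cows. MAD2L1, a spindle checkpoint protein, was lower by -0.35 ± 0.15 (limma, unadjusted p = 0.034, adjusted p = 0.619) in 3 of 6 cows. None of these 3 held without cow 1, at 0.16 for CDKN1A, -0.20 for RB1 and -0.36 for MAD2L1. MAD2L1 was -0.17 without cow 5 and -0.26 without cow 6, RB1 was -0.18 without cow 2 or cow 6, and CDKN1A was 0.18 without cow 3 and 0.15 without cow 4, all over the threshold. From day 21 to day 40, 0 of 35 genes passed, beside 7.87% of all probe sets. After adjustment 0 of them passed for either day, beside 0.00833% of all probe sets for day 40 (limma).

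MAD2L1 had the widest range of the 35 genes, 2.44 log2 units, and 1 cow accounted for its upper end. In cow 5 it stood at 6.41 in the 2× gland and 5.59 in the 4× gland on day 21, and at 6.22 and 5.24 on day 40, all from rear glands. In the fore glands of the same cow on day 23 it was 4.70 and 4.82. In the other 5 cows the values lay at 5.18 or below, from 3.97 upwards. The mean over its 6 arrays was 5.49 in cow 5 and at most 4.85 in any other cow. In both rear biopsies of cow 5 the 4× minus 2× difference was negative, -0.82 on day 21 and -0.97 on day 40, while in cow 4 it was 0.61 and 0.65. The mean difference of MAD2L1 on day 21 was -0.03 ± 0.18.

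With the mean of each group removed, genes of replication and genes of mitosis varied together more than the G1 cyclins and kinases did, by their median correlation. Over the 36 arrays the median Pearson r between pairs was 0.30 for the 45 pairs of replication genes, 0.21 for the 91 pairs of mitosis genes, -0.02 for the 21 pairs of G1 cyclins and kinases, and 0.08 for all 595 pairs. The arrays share cows, and these values are a description. Without the 2× array of cow 1 on day 21 the replication median was 0.20 and that of mitosis 0.19, and without cow 1 they were 0.20 and 0.24, so the order of the pair turned. Between the roles of replication and mitosis the median was 0.10.

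The highest r was that of MCM3 and MCM4, 0.76 over 36 arrays, which became 0.52 without the 2× day 21 array of cow 1 and 0.43 without cow 1. MCM4 and CENPF had 0.72, and 0.42 without cow 1. Other pairs did not depend on that cow: AURKB and E2F1 had 0.71, and 0.81 without cow 1, and CCNB1 and BUB1B had 0.66, and 0.61 without cow 1. In the opposite direction, CDC20, which triggers the end of mitosis, and RB1 had -0.73, and -0.78 without cow 1. RB1 was also inversely related to AURKB, with -0.58, and CCNE1, with -0.57. CDK1 and CCND1 had -0.62, and -0.72 without cow 1. These pairs were named for their high or low r among the 595, and both partners of a pair can follow the same cell type markers. With the mean of 3 adipocyte markers CDC20 had 0.67 and RB1 -0.60.

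**Figure D4:**
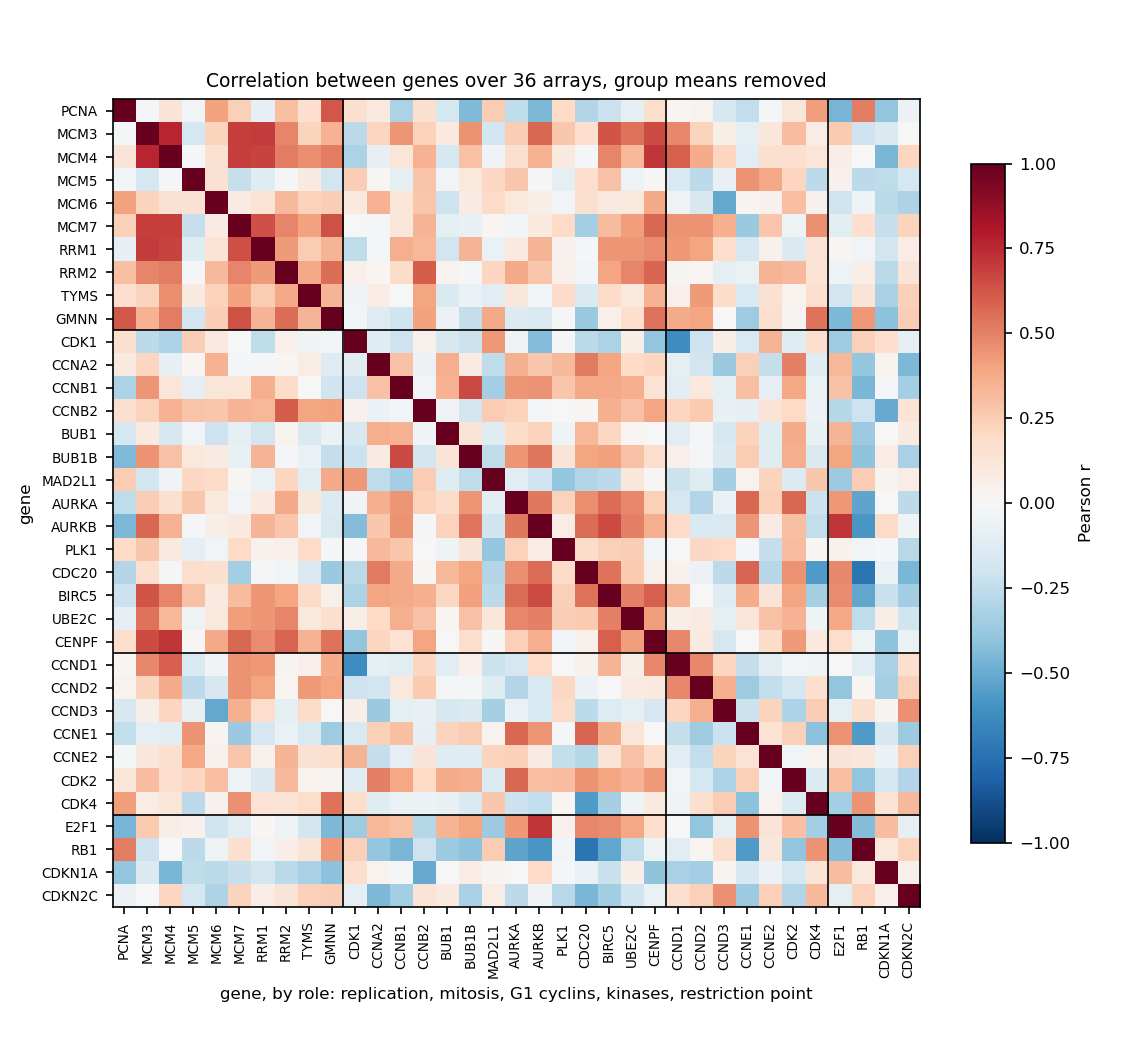
Pearson r between each pair of the 35 genes over 36 arrays after the mean of each group was removed, from -1 (blue) to 1 (red), with black lines between the 4 roles. Red cells join MCM3, MCM4, MCM7 and RRM1. Of 10 pairs of MCM subunits, 3 had an r over 0.5, and 0 without cow 1. The row of RB1 is blue against CDC20 (-0.73), AURKB (-0.58) and CCNE1 (-0.57).

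Markers of cell types moved with some of these genes from array to array. With group means removed, MCM4 had an r of 0.81 with the mean of 6 luminal epithelium markers over 36 arrays, 0.64 without the 2× day 21 array of cow 1 and 0.45 without cow 1. For MCM3 these were 0.79, 0.61 and 0.61. CDK1 had -0.20 over 36 arrays, -0.01 without that array and 0.20 without cow 1, so its sign turned. TYMS had 0.33 with and without cow 1. With the mean of 6 milk protein genes, also made by luminal cells, the sign was the opposite. There MCM4 had -0.51 and MCM3 -0.66 over 36 arrays, and -0.10 and -0.34 without cow 1. AURKB had 0.77 with the mean of 4 erythrocyte markers, and 0.77 without cow 1. This was not particular to AURKB: over 36 arrays E2F1 had 0.70, AURKA 0.55, BIRC5 0.52, CDC20 0.51 and CCNE1 0.50 with them. In the opposite direction, RB1 had -0.49, CDK4 -0.45 and PCNA -0.43. Those erythrocyte markers were 0.12 ± 0.18 (SD) higher in the 4× glands on day 40, in 5 of 6 cows. Of the 4 markers, 1 was higher at an unadjusted p under 0.05 (limma), beside 11.6% of all probe sets. Their mean was near background, from 4.09 to 4.61 in the 2× glands and from 4.18 to 4.52 in the 4× glands of day 40. The part of these cell types in the differences was not tested.

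**Figure D5:**
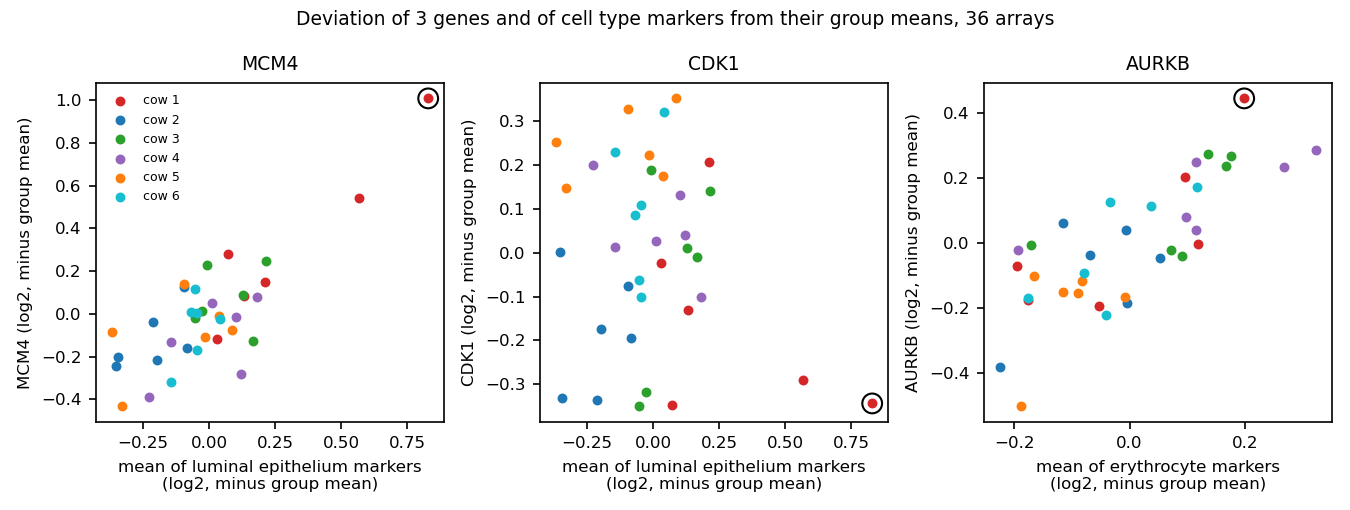
Deviation from the group mean in each of 36 arrays, in log2 units, for MCM4 and CDK1 (vertical axes) against the mean of 6 luminal epithelium markers, and for AURKB against the mean of 4 erythrocyte markers (horizontal axes). Points are coloured by cow, and the circle marks the 2× day 21 array of cow 1; r is 0.81 for MCM4, -0.20 for CDK1 and 0.77 for AURKB, and without cow 1 it is 0.45, 0.20 and 0.77.

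A wider list of 115 other genes of the cell cycle had 78 measured. On day 21, 4 were higher and 7 lower in the 4× gland at an unadjusted p under 0.05 (14.1%, beside 15.9% of all probe sets). On day 23 there were 3 higher and 1 lower (5.13%, beside 2.64%), and on day 40 there were 6 higher and 5 lower (14.1%, beside 20.4%). None passed after adjustment (limma), and the median difference was 0.01 on day 21 and 0.02 on days 23 and 40. Of the 3 with the smallest unadjusted p on day 21, POLD2, a subunit of DNA polymerase delta, was 0.40 ± 0.09 higher in 6 of 6 cows. CDKN1C, a kinase inhibitor, was lower by -0.35 ± 0.10 in 6 of 6 cows, and BTG1, an antiproliferative gene, by -0.56 ± 0.16 in 5 of 6 cows, of which cow 1 had -1.76. Without cow 1 BTG1 was -0.32, CDKN1C -0.29 and POLD2 0.29. POLD2 was thus higher on the day when the mean of the helicase subunits was lower in 5 of 6 cows. That fall was largest in cow 1, from 7.19 in its 2× gland to 6.32 in its 4× gland. In the other cows the mean ran from 6.36 to 6.69 in the 2× glands and from 6.29 to 6.54 in the 4× glands.

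On day 40, ESPL1, separase, which cuts cohesin at anaphase, was 0.35 ± 0.08 higher in 6 of 6 cows. CDT1, which loads the MCM helicase and is held back by geminin, was 0.32 ± 0.10 higher in 5 of 6 cows, on the day MCM4 and MCM7 were lower in every cow. BTG1 was again lower, by -0.50 ± 0.16, in 6 of 6 cows. The adjusted p of these 3 was between 0.171 and 0.178 (limma).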

How the data were processed

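Biopsies of 6 cows on days 21, 23 and 40 gave 36 arrays. The authors corrected probe signals for background, normalized them between arrays and deposited 1 log2 value for each probe set by RMA (Robust Multichip Average), whose version is not given in the sources used here. Of 24128 probe sets, 112 controls were left out. Array medians ran from 6.04 to 6.15, and the number of arrays limits the precision. Arrays were grouped from their labels. Pairing by cow was checked by correlation of the deviations from group means, which was positive in 18 of 18 pairs (0.242 to 0.665). Cows are the replicates.

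Milking differences were fitted with limma 3.58.1 in R 4.3.3 (lmFit, eBayes) on 18 differences (4× minus 2×, 1 per cow and day), estimating each day's mean and pooling the spread over days. Day differences were fitted on the means of both glands with cow as a block. P-values were adjusted over 24016 probe sets (Benjamini and Hochberg, threshold 0.05). Which test was applied to the arrays in the study is not given in the sources used here. On simulated data the fit recovered 98% of changes of 1 log2 unit on day 21 and 99% of those from day 21 to day 40, among 24016 probe sets. Changes under 1 log2 unit were not simulated, and the largest mean 4× minus 2× difference of the 35 genes was 0.36 in size. The simulation therefore does not show how often differences of the sizes found here would be recovered.

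Gene symbols came from the platform annotation, with a single symbol for 13292 probe sets. All genes of the list were named; full statistics were given for CDK1, PCNA, CCND1, CDKN1A, the 4 genes with the smallest unadjusted p in each comparison and any other past the threshold, and of the 115 other genes the 3 with the smallest p. The genes, lists and rule were chosen with earlier results of these data known. Alternatives were the fit without pairing, a separate spread for each comparison, trend and robust moderation, dim probe sets left out, centring, scaling to reference genes, the mean of all probe sets of a gene and leaving out each cow. Leaving out the day 21 arrays of cow 1, and the group and marker means without cow 1, were chosen after the data were seen.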

Additional observations from a re-analysis of the deposited data

Results flagged for a closer look

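Of 131 sets of 6 values examined, 16 held a sample set far apart from the other 5 by Dixon's criterion (its gap to the nearest of them, over the whole range, passed the critical value), where chance gives about 1 in 20, and 8 of the 16 were of cow 1. In the 4× minus 2× differences of day 21, cow 1 stood apart for MCM4 (-1.23), MCM3 (-1.58), CCND1 (-1.34) and the mean of the replication genes (-0.77), and on day 40 for CCND1 (-0.92). Its 2× gland stood apart in level on day 21 for MCM4 (7.09) and CCND1 (7.89), and on day 40 for CCND2 (7.68). These values of day 21 come from 1 array, and are not independent of each other.

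CDKN1A differed by 0.87 in cow 6 on day 21, above the other 5 cows. Cow 2 stood apart on day 40 for RB1, with a difference of 0.41 and a level of 7.29 in the 4× gland, and for MCM3, with the lowest level of 5.45 in the 4× gland. Cow 5 had the highest MAD2L1 levels of the 2× glands, 6.41 on day 21 and 6.22 on day 40, and the highest PCNA level of the 4× glands on day 23, 8.89. Cow 4 had the lowest TYMS level of the 2× glands on day 21, 5.09.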

How the results depend on the processing

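The number of the 35 genes past an unadjusted p of 0.05 depended on the pairing and on cow 1. On day 21 it was 7 with pairing by cow and 2 with no replicate block, 2 with a separate spread for each comparison, 4 with scaling to reference genes, and 0 without the day 21 arrays of cow 1; the 2 left by either of the first settings were CCNB2 and TYMS. Leaving out single cows gave 0 to 8 on day 21, 0 to 1 on day 23 and 3 to 7 on day 40. On day 40 a separate spread gave 2 in place of 7, MCM4 and MCM7, and on day 23 it gave 1 in place of 0. For the change from day 21 to day 23, 2 became 1 with no replicate block, with a separate spread, with dim probe sets left out, with centred arrays, with the mean of all probe sets, or without the day 21 arrays of cow 1, and 1 to 3 with single cows left out; cow as a fixed effect gave 3. For the change from day 21 to day 40, 1 became 0 with no replicate block, 2 with a separate spread, 2 without the day 21 arrays of cow 1, and 0 to 3 with single cows left out. Between days 21 and 23, 3 became 1 with no replicate block, in the 2× glands alone or without the day 21 arrays of cow 1, and 1 to 3 with single cows left out; between days 21 and 40, 0 became 2 in the 4× glands alone and 0 to 2 with single cows left out.

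Single genes changed direction in 11 of the alternatives run, 745 kept direction and side of the threshold, 156 moved over it and 19 came under it. With single cows left out, CCND1 ran from -0.186 to 0.151 on day 21, from -0.159 to 0.0108 on day 23 and from -0.218 to 0.0235 on day 40, above 0 without cow 1 alone. It was 0.151 on day 21 without the day 21 arrays of cow 1. PCNA on day 21 ran from -0.0503 to 0.0185 with single cows left out, was 0.0185 without the day 21 arrays of cow 1 and 0.0172 with scaling to reference genes. CDK1 on day 40 ran from -0.0281 to 0.0222 with single cows left out, and TYMS on day 40 became 0.0602 by the mean of its probe sets. The cause of these changes was not tested beyond the arrays left out. The share of higher among all probe sets past the threshold was 50.4% on day 21 and 61.7% with scaling to reference genes, and 52.4% on day 23 against 23.8%. The 10 genes near background have signals that limit what a difference can show.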
